A study of Mus musculus with 6 samples.

Results

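The guanylate-binding proteins (GBPs) and the immunity-related GTPases (IRGs) are GTP-hydrolysing proteins whose genes are switched on by interferons. The genes described are Gbp2, Gbp3, Gbp4, Gbp5, Gbp6, Gbp7, Iigp1, Igtp, Irgm1 and Irgm2, taken by symbol from the deposited table, and all 10 were found among its 23057 genes. RNA was measured in whole brains of C57BL/6 mice, 3 mock-irradiated and 3 whose heads received 10 Gy of X-rays through a collimated field, all perfused with buffered saline and taken 30 days later. No source used here gives the age or sex of the mice, and libraries are called mock 1 to 3 and irradiated 1 to 3 after the labels' replicate numbers. Levels are in FPKM (fragments per kilobase of transcript, relative to all mapped fragments of a library), a unit corrected for transcript length, so that levels can be compared between genes. Between libraries it is a relative measure, and other scalings are given where they change a call or a sign.

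Both families belong to the cell's own defence against microbes that live inside membrane-bound compartments. GBPs, relatives of dynamin, assemble on the membranes of pathogens and of the vacuoles around them, and some of them feed into inflammasomes. Among the IRGs, Irgm1, Irgm2 and Igtp (also called Irgm3) are regulators that sit on the cell's own membranes and hold the effector IRGs in check, while Iigp1 (also called Irga6) is an effector that loads onto vacuoles. Interferons act through cell-surface receptors and JAK kinases on promoter motifs, among them GAS elements and the interferon-stimulated response elements (ISRE) that IRF proteins bind. In the infected mouse brain these GTPases are known from the control of Toxoplasma gondii.

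The genes lie in clusters, here in RefSeq coordinates of GRCm38.p6 (mm10). Gbp5, Gbp7, Gbp3 and Gbp2 stand in this order on chromosome 3 between 142496934 and 142638008, where Gbp2b is the only further protein-coding gene. Gbp4 and Gbp6 are on chromosome 5 between 105115767 and 105295871, with Gbp10 between them. Irgm1 is on chromosome 11 at 48865245 to 48871420, Igtp and Irgm2 are neighbours on the same chromosome at 58199556 to 58207592 and 58214977 to 58222783, and Iigp1 is on chromosome 18 at 60373616 to 60392634.

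Promoter windows in RefSeq, from 250 bases before to 50 bases after an annotated transcript start, were at hand for 7 of the 10 genes, with 8 windows in all because Gbp3 has 2. They were searched for the letters of an ISRE (GAAA, any 2 bases, then GAAA again, on both strands) and of a GAS element (TTCNNNGAA, which reads the same on both strands). Each of the 7 genes had an ISRE match in a window, 7 of the 8 windows in all, against 3.44% of the 32851 windows of all genes. A GAS match was present in the windows of 4 of the 7 genes, Gbp5, Gbp7, Igtp and Irgm2, against 8.3% of all windows. The windows of Gbp3 and Irgm1 each held 2 ISRE matches that share 1 GAAA (GAAA 3 times over, each copy 2 bases from the next), a form found in 0.116% of all windows and looked for after the sequences had been seen. A match describes the letters of the window and is not a bound site.

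The 5 windows below were picked by RNA values of these same libraries. They set Gbp3 and Irgm1, the tested GTPase genes of smallest p, beside Gbp5 and Irgm2, whose values overlapped between the groups. Igtp is added as the neighbour of Irgm2. Gbp2 and Gbp7, whose windows each had 1 ISRE match, are not shown. Neither Gbp3 nor Irgm1 passed the test described below. A link between the letters of these windows and a change in RNA was not tested. Capitals mark ISRE and GAS letters, and each is written 5′ to 3′ along the gene's own strand. Gbp3 is chr3:142559794-142560093 (plus strand), Irgm1 is chr11:48871371-48871670 (minus strand), Gbp5 is chr3:142496684-142496983 (plus strand), Igtp is chr11:58199306-58199605 (plus strand) and Irgm2 is chr11:58214727-58215026 (plus strand).
Gbp3: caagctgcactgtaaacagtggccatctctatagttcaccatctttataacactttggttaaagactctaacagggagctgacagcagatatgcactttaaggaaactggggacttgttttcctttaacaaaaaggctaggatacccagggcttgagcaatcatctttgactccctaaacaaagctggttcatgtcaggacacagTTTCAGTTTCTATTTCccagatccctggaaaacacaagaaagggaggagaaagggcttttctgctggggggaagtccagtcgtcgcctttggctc
Irgm1: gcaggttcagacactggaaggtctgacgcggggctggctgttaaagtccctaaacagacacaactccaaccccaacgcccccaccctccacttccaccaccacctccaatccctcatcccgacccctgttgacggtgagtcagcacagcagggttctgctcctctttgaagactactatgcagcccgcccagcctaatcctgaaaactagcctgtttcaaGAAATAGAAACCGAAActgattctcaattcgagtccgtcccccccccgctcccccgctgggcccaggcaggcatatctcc
Gbp5: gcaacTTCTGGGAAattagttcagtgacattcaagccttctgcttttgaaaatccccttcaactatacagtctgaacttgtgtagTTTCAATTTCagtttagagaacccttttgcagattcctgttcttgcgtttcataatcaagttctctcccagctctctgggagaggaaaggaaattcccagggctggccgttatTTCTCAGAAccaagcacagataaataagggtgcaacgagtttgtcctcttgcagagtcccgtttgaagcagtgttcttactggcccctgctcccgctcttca
Igtp: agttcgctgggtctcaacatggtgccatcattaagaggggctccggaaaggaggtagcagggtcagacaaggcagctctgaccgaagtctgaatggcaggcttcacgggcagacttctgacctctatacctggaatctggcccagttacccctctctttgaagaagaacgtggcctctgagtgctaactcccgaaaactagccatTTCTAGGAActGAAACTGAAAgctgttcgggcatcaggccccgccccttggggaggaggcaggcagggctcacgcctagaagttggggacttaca
Irgm2: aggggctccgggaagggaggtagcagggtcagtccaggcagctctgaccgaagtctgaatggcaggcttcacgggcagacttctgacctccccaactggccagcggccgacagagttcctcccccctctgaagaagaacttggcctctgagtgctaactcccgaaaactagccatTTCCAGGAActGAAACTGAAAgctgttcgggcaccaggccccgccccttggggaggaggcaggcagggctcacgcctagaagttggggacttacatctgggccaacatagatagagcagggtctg
The overlapping ISRE letters lay at positions -45 to -30 in Gbp3 and -30 to -15 in Irgm1, counted with the start as 0. The genes further from the test had ISRE letters near the start too. These lay at -34 to -25 in Igtp, -64 to -55 in Irgm2, -59 to -50 in Gbp2 and -53 to -44 in Gbp7. Only in Gbp5 did the ISRE letters lie farther out, at -165 to -156. The windows of Igtp and Irgm2 were 73.5% identical over their aligned length and carried the same arrangement, GAS letters followed by ISRE letters.

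**Figure D1:**
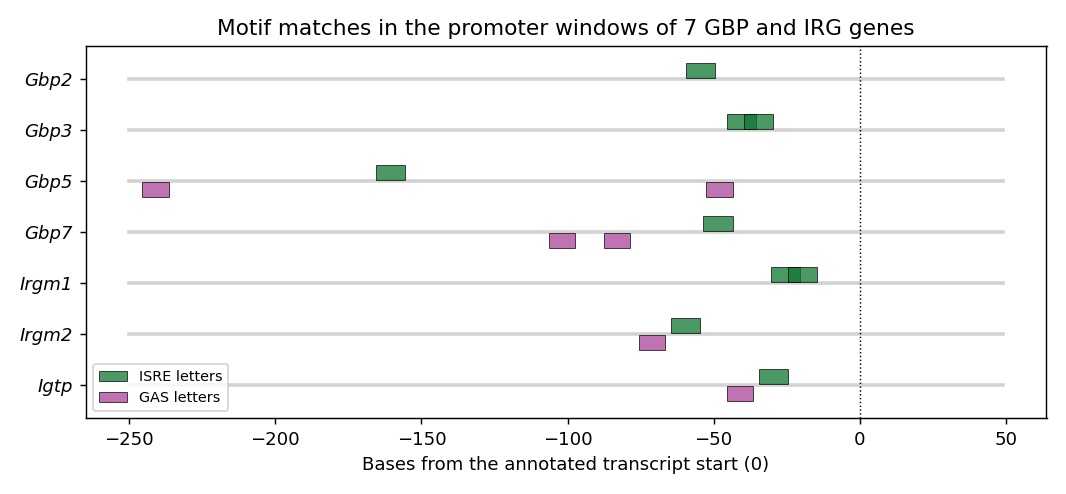
Position of ISRE letters (green) and GAS letters (purple) in the promoter window of each of 7 genes, in bases from the annotated transcript start at 0. Gbp3 and Irgm1 each show 2 overlapping ISRE matches and no GAS match.

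All 10 GTPase genes had low RNA levels in these brains. Irgm1 was the highest in each group, at 4.16 ± 0.39 FPKM (mock) against 5.89 ± 0.81 FPKM (irradiated) (mean ± SD over 3 mice, as for all such values below), and its range did not overlap that of the next gene. In mock libraries Igtp, Gbp3, Gbp2 and Irgm2 followed, from 2.11 ± 0.33 down to 1.19 ± 0.16 FPKM, and of these neighbours only Igtp and Gbp3 overlapped in range. Gbp6, Gbp5, Gbp7, Iigp1 and Gbp4 all had means under 0.7 FPKM in mock, between 0.69 and 0.41, and each overlapped its neighbour in this order. Gbp4, at a mean of 0.32 FPKM over the 6 libraries, was the 1 member that did not reach the mean of 0.5 FPKM required for testing. The other 9 reached that level in the mock group alone as well as in the irradiated group alone.

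**Figure D2:**
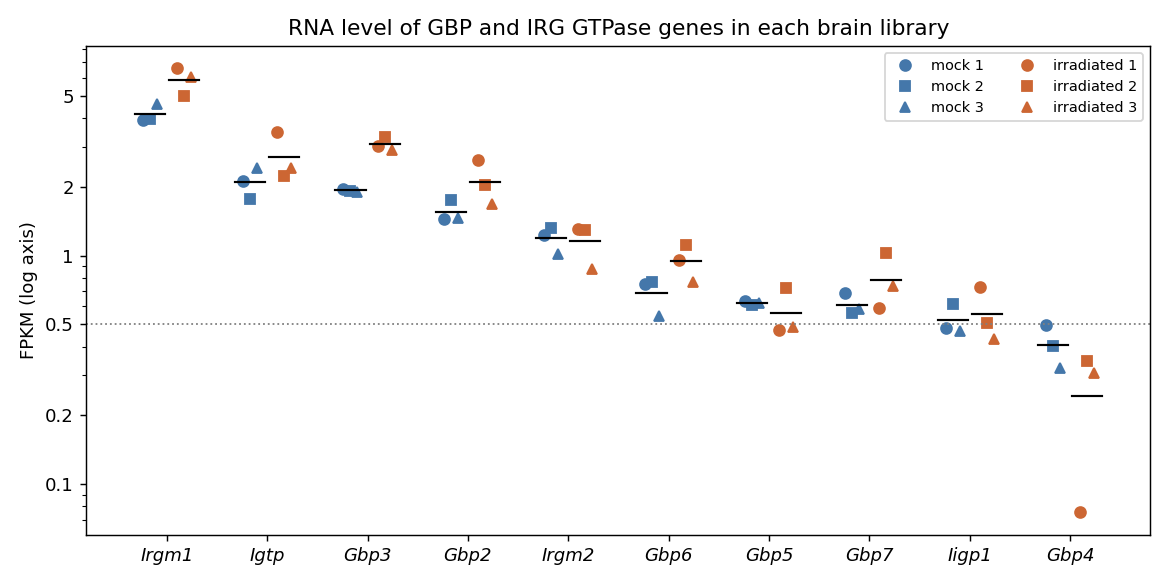
FPKM of each of the 10 genes in every library (log axis; blue mock, orange irradiated; symbols give the replicate number, bars the group means, and the dotted line the filter of 0.5 FPKM on the mean over all libraries). For Gbp3, Irgm1 and Gbp6 the irradiated libraries all lie above the mock libraries, and for the other 7 genes the groups overlap.

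None of the GTPase genes changed by the test used for all genes, and the 2 closest to it, Gbp3 and Irgm1, had values about 1.59 and 1.42 times the mock mean. Of the 9 tested, 0 were called higher and 0 lower (limma on log2(FPKM + 0.5), adjusted p under 0.05 over all 14585 tested genes), where 3.48% of all tested genes were called higher and 4.24% lower. Without adjustment, 2 of the 9 were higher and 0 lower at a p under 0.05, where 11.7% of all tested genes were higher and 13.9% lower. Groups did not overlap for 3 of the 9, all with irradiated above mock, where 13.7% of all tested genes lay above and 17.7% below in this way. The median log2 change of the 9 was 0.28, beside -0.018 for all tested genes, and 7 of the 9 were positive, as were 7032 of the 14585. For all 9 the 95% interval of the change lay between -1 and 1. This scale understates the change of low genes, and with a pseudocount of 0.1 in place of 0.5 the interval stayed below 1 for 7 of the 9. With 3 mice against 3, an exact permutation test of 1 gene cannot go below 0.1.

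**Figure D3:**
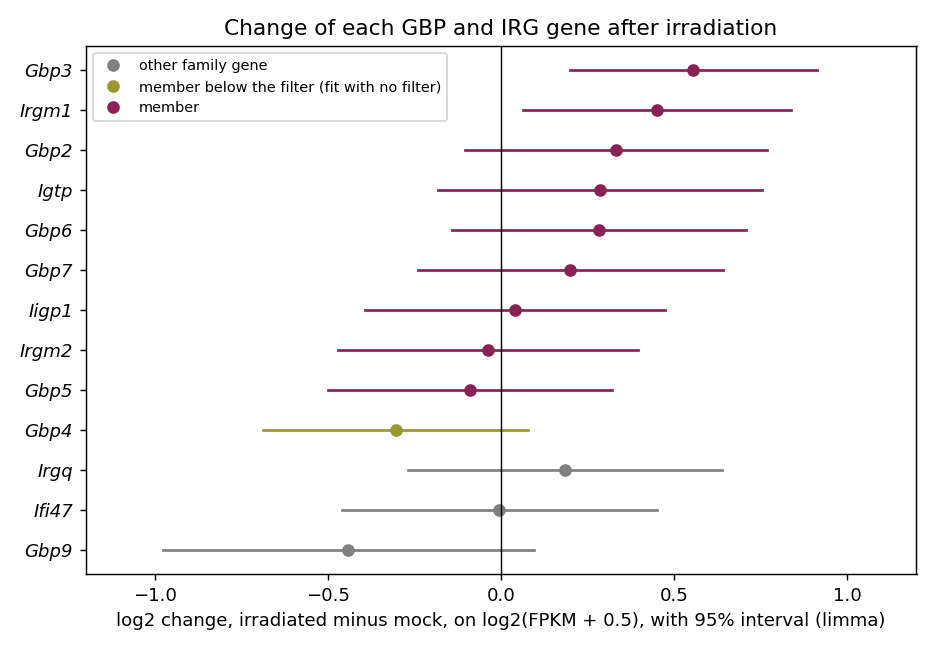
Log2 change (irradiated minus mock, on log2(FPKM + 0.5)) with its 95% interval from limma for the 9 tested members, for Gbp4 in a fit with no filter, and for 3 other tested genes of the families. The intervals of Gbp3 and Irgm1 lie above 0, and all others include 0.

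On chromosome 3, Gbp3 had the largest log2 change of the 9 tested members and little spread within either group. Its values were 1.97, 1.92 and 1.91 FPKM (mock) against 3.01, 3.31 and 2.91 FPKM (irradiated), so that every irradiated library lay above every mock one. The log2 change was 0.56 (SE 0.16, 95% interval 0.20 to 0.91) and missed the threshold (limma adjusted p = 0.066). Over 16 alternative settings the change ranged from 0.47 to 0.69 and was called only with quantile normalization between libraries (adjusted p = 0.031, range over the settings 0.031 to 0.44). Gbp2, which coats Toxoplasma vacuoles in mouse cells, had 1.45, 1.76 and 1.46 FPKM (mock) against 2.61, 2.03 and 1.68 FPKM (irradiated). Irradiated 3 lay inside the mock range, and the log2 change was 0.33 (SE 0.19, limma adjusted p = 0.31), or 0.20 without irradiated 1.

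The other chromosome 3 genes showed no separation. Gbp7, linked in mouse macrophages to assembly of the phagocyte oxidase, had 0.69, 0.56 and 0.58 FPKM (mock) against 0.59, 1.03 and 0.74 FPKM (irradiated) (log2 change 0.20, limma adjusted p = 0.54). Irradiated 2 was its highest library and irradiated 1 lay within the mock range, and the change was 0.068 without irradiated 2 and 0.31 without irradiated 1. Gbp5, which promotes inflammasome assembly, had 0.635, 0.610 and 0.618 FPKM (mock) against 0.472, 0.719 and 0.486 FPKM (irradiated). The mock mice lay within a narrow band and the irradiated mice fell on both sides of it, with a log2 change of -0.090 (95% interval -0.50 to 0.32, limma adjusted p = 0.78) whose sign turned with quantile normalization (0.015).

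On chromosome 5 the pair of members pointed in opposite directions, neither past the test. Gbp6 had 0.75, 0.76 and 0.54 FPKM (mock) against 0.96, 1.11 and 0.77 FPKM (irradiated), with the lowest irradiated value just above the highest mock value (log2 change 0.28, limma adjusted p = 0.37). Of the 75-base stretches of its longest GENCODE transcript, the read length of this study, 51.7% also occurred in Gbp10 and 86% in Gm43302, a gene without a row in the table, so the value of Gbp6 is uncertain. Gbp4 had 0.50, 0.40 and 0.32 FPKM (mock) against 0.08, 0.35 and 0.31 FPKM (irradiated), with irradiated 1 lowest and the groups overlapping. In a fit with no filter its log2 change was -0.30 (95% interval -0.69 to 0.08, limma adjusted p = 0.32). For the other 9 members, between 0% and 11.4% of such stretches occurred in another gene.

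Among the IRG regulators, Irgm1 had the widest difference. It was at 3.91, 3.96 and 4.60 FPKM (mock) against 6.61, 5.01 and 6.04 FPKM (irradiated). All irradiated libraries lay above all mock libraries, with a log2 change of 0.45 (SE 0.17, 95% interval 0.06 to 0.84) that missed the threshold (limma adjusted p = 0.14, and 0.090 to 0.58 over the 16 settings). Igtp, which resides on the endoplasmic reticulum, had 2.12, 1.77 and 2.43 FPKM (mock) against 3.48, 2.23 and 2.41 FPKM (irradiated). Only irradiated 1 lay above the mock range, and the log2 change was 0.29 (limma adjusted p = 0.41), falling to 0.12 without that library.

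Irgm2, the regulator next to Igtp, overlapped between the groups. It had 1.23, 1.32 and 1.02 FPKM (mock) against 1.31, 1.29 and 0.87 FPKM (irradiated). The log2 change was -0.037 (95% interval -0.47 to 0.40, limma adjusted p = 0.92), and its sign turned with median centring (0.0025) and with quantile normalization (0.084). Iigp1, the effector, had 0.48, 0.62 and 0.47 FPKM (mock) against 0.73, 0.51 and 0.43 FPKM (irradiated), the highest and the lowest of its values both being irradiated (log2 change 0.040, 95% interval -0.39 to 0.47, limma adjusted p = 0.91).

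The other genes of the families were mostly lower still. Of 17 further GBP and IRG genes in the table, 3 were tested and 0 were called (limma, 0 at an unadjusted p under 0.05). Gbp9 was at 0.69 ± 0.19 FPKM (mock) against 0.38 ± 0.20 FPKM (irradiated) (log2 change -0.44, limma adjusted p = 0.28). Ifi47, another IRG gene of chromosome 11, had a log2 change of -0.0048 (adjusted p = 0.99), which was 0.035 with median centring and 0.096 with quantile normalization. Irgq, a relative at a far higher level of 17.2 ± 2.04 FPKM (mock) against 19.8 ± 4.33 FPKM (irradiated), had one of 0.18 (adjusted p = 0.59).

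The other 14 of these further genes were too low to test. Gbp2b and 9930111J21Rik2 were listed at 0 in every library. Gm5431, a chromosome 11 gene between Irgm1 and Tgtp1, had 0, 0.023 and 0.017 FPKM (mock) against 0.106, 0.0998 and 0.0779 FPKM (irradiated). Gm12250, the gene of the IRG effector Irgb10 next to Igtp, had 0.13, 0.05 and 0.04 FPKM (mock) against 0.15, 0.16 and 0.25 FPKM (irradiated), and Gm4951 ranged over 0.08 to 0.10 in mock and 0.13 to 0.18 in irradiated libraries. For these 3 the groups did not overlap and irradiated was the higher. Irradiated was the lower for Gbp11 (0.24 to 0.33 against 0.13 to 0.23 FPKM) and 9930111J21Rik1 (0.21 to 0.36 against 0.05 to 0.15 FPKM). So 3 of 14 lay above and 2 of 14 below, where 13.7% and 17.7% of all tested genes did so. Those shares are of genes that reached the filter, which these 14 did not. Gbp2b and 9930111J21Rik2, at 0 throughout, could not separate. The other 7, Gbp8, Gbp10, Tgtp1, Tgtp2, Gm4841, F830016B08Rik and Irgc1, overlapped between the groups, and none of the low genes was called in the fit with no filter (smallest adjusted p = 0.074, for Gm5431). Tgtp1 and Tgtp2 shared 84.8% and 85.2% of their 75-base stretches with each other, so reads of this pair could be split either way. Such stretches also occurred in other genes for 75.5% of Gbp10, 70.9% of 9930111J21Rik1, 44.6% of 9930111J21Rik2, 35.1% of Gm5431 and 21% of Gbp11. The values of these genes are uncertain too.

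Upstream of the GTPases, 8 interferon genes were at 0 and no receptor gene was called. Ifng, Ifnb1, Ifna1, Ifna2, Ifna4, Ifnk, Ifnl2 and Ifnl3 were listed at 0 in every library. Ifne, the other interferon gene of the list, had 0.13, 0 and 0.11 FPKM (mock), was at 0 in all irradiated libraries and was too low to test. Among 5 tested receptor genes 0 were called, and 0 had an unadjusted p under 0.05 (limma). Their median log2 change was -0.049. Ifngr2, a chain of the interferon-gamma receptor, had the smallest p, at 18.2 ± 1.81 and 22.8 ± 3.36 FPKM (log2 change 0.31, adjusted p = 0.29). Ifngr1 (-0.049, adjusted p = 0.86), Ifnar1 (-0.13, adjusted p = 0.65) and Il10rb (-0.075, adjusted p = 0.80) had smaller changes, and the sign for Il10rb turned with quantile normalization (0.046).

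Of 18 tested genes of JAK-STAT and IRF signalling, 2 rose and 0 fell, with a median log2 change of 0.14. For this and the lists that follow, the background is the 3.48% of all tested genes that rose and the 4.24% that fell. The 2 were Irf7, a transcription factor that amplifies interferon expression, at 2.25 ± 0.37 and 6.08 ± 0.42 FPKM (log2 change 1.27, SE 0.17, limma adjusted p = 0.0041), and Usp18, an interferon-induced brake on the type I receptor, at 0.93 ± 0.34 and 2.94 ± 0.72 FPKM (1.27, SE 0.24, adjusted p = 0.019). Irf1, an ISRE-binding factor, was at 3.25 ± 0.30 and 3.63 ± 0.31 FPKM (log2 change 0.14, adjusted p = 0.62). It is named for its part in GBP and IRG transcription, after its values were seen. Stat2 had a log2 change of -0.55 (adjusted p = 0.082), with all irradiated libraries below all mock ones, and Socs1, an inhibitor of JAK kinases, one of 0.49 (adjusted p = 0.13). The call of Usp18 was lost in 6 of 16 settings and that of Irf7 in 1.

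Some other genes known to respond to interferon-gamma rose in the same libraries. Of 22 tested, 6 rose and 0 fell, and the median log2 change was 0.49. Bst2, a virus tether that type I interferon also induces, was at 11.5 ± 1.44 and 30.3 ± 1.09 FPKM (log2 change 1.36, SE 0.15, limma adjusted p = 0.0019), and Cxcl10, a chemokine for T cells, was at 0.45 ± 0.04 and 2.19 ± 0.74 FPKM (1.46, SE 0.23, adjusted p = 0.0083). Tap1, a peptide transporter for class I antigen presentation, was at 1.24 ± 0.31 and 2.61 ± 0.08 FPKM (0.85, adjusted p = 0.032), and Psmb9, an immunoproteasome subunit, at 1.65 ± 0.32 and 3.54 ± 0.84 FPKM (0.90, adjusted p = 0.038). Cxcl10 passed the filter on low values through its irradiated group alone. The calls of Tap1 and Psmb9 were lost in 9 and 10 of 16 settings, and those of Bst2 and Cxcl10 with the telencephalon covariate described below. The difference between these genes and the GTPase genes was not tested.

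**Figure D4:**
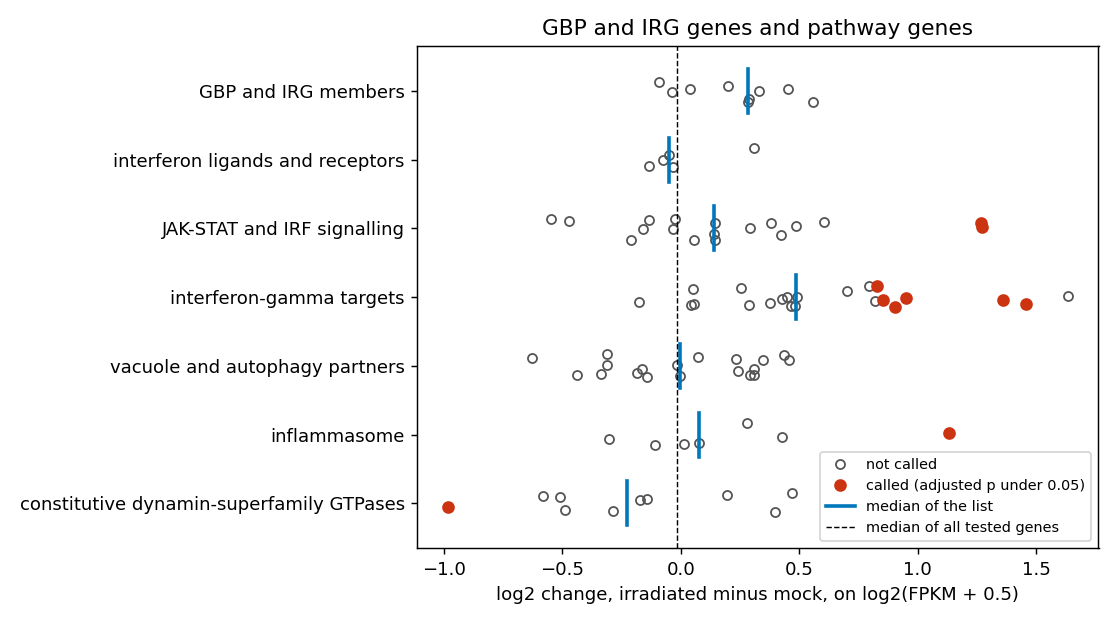
Log2 change (irradiated minus mock, on log2(FPKM + 0.5)) of each tested gene in the GBP and IRG set and in 6 lists of pathway and partner genes; filled red points passed the test and blue bars are list medians. The 9 GTPase genes lie between -0.09 and 0.56 with none called, and 6 of the 22 interferon-gamma targets are called higher.

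Genes whose products act with GBPs and IRGs were mostly not called. Of 19 tested genes of the autophagy machinery and of vacuole recognition, 0 were called, while an unadjusted p under 0.05 was reached by 1 with a positive and 2 with a negative change (limma). Their median log2 change was -0.0039. Lgals8, a sensor of damaged vacuoles, had a log2 change of -0.63 (adjusted p = 0.088), Gabarapl1, a ubiquitin-like protein of autophagosomes, one of 0.43 (0.18), Traf6, a ubiquitin ligase, one of -0.44 (0.18), and Calcoco1, an autophagy receptor, one of 0.31 (0.24). Among 7 tested inflammasome genes 1 rose, Zbp1, an interferon-induced sensor of Z-form nucleic acids, which was at 0.21, 0.18 and 0.03 FPKM (mock) against 0.62, 0.74 and 1.45 FPKM (irradiated) (log2 change 1.13, SE 0.25, limma adjusted p = 0.033). Zbp1, like Cxcl10, passed the filter on low values through its irradiated group alone, and its call was lost in 7 of 15 settings. Il18 (log2 change 0.43, adjusted p = 0.34), Gsdmd, the pore protein of pyroptosis (0.28, 0.41) and Casp1 (-0.30, 0.64) were not called.

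Dynamin-superfamily GTPases that cells make without interferon, relatives of the GBPs, included 1 call. Of 10 tested, 1 fell and 0 rose, with a median log2 change of -0.23. Atl2, an atlastin that fuses endoplasmic reticulum tubules, fell from 26.7 ± 4.61 to 13.2 ± 1.36 FPKM (log2 change -0.98, SE 0.18, limma adjusted p = 0.015). Mfn1, a mitochondrial fusion protein, had a log2 change of -0.51 (adjusted p = 0.11), Dnm3, a dynamin, one of -0.49 (0.18) and Atl3 one of -0.58 (0.19). The call of Atl2 was lost in 4 of 16 settings.

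By library, the summed FPKM of the 10 GTPase genes was 13.7, 13.7 and 14.0 (mock) against 19.8, 17.6 and 16.6 (irradiated). Irradiated 1 was the highest and irradiated 3 the closest to mock. Such a sum gives most weight to the highest genes, and Irgm1 alone had means of 4.16 (mock) against 5.89 FPKM (irradiated). Gbp4, Gbp5 and Irgm2 had lower means in irradiated than in mock, and the other GTPase genes higher ones. In bulk tissue, fewer cells of a type and less RNA per cell cannot be told apart, so marker lists are given beside these sums. The summed level of 10 microglia markers was 122.7 to 148.0 FPKM (mock) against 130.7 to 174.4 FPKM (irradiated), and 1 of them rose, Fcrls. Of 8 T cell markers in the table, 2 were tested, and Zap70 rose, as did Lck, which passed the filter on low values through its irradiated group alone. The 8 markers summed to 1.22 to 2.13 (mock) against 4.42 to 5.63 FPKM (irradiated). Most of this was Zap70 (mean 0.97 and 3.34 FPKM) and Lck (0.49 and 1.33 FPKM). The defining markers Cd3e, Cd3d and Cd3g stayed at or below 0.25 FPKM, each listed at 0 in at least 1 irradiated library. Cd3e and Cd3d were at 0 in a mock library too. Cd4 was at 0.11, 0.04 and 0.09 FPKM (mock) against 0.17, 0.11 and 0.33 FPKM (irradiated), with the groups overlapping. Cd8a and Cd8b1 had lower means in irradiated than in mock. Of 7 natural killer cell markers none was tested, their sum was 0.09 to 0.17 (mock) against 0.06 to 0.44 FPKM (irradiated), and Prf1 was listed at 0 throughout.

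Border macrophage markers summed to 3.27 to 4.29 (mock) against 5.50 to 8.82 FPKM (irradiated), with 0 of 4 tested called (limma, 1 higher at an unadjusted p under 0.05). Endothelial markers, with 1 of 8 lower, summed to 111.1 to 141.8 (mock) against 87.9 to 106.6 FPKM (irradiated), and astrocyte markers, with 1 of 8 lower, to 1423 to 1605 and 1107 to 1266 FPKM. Neuron markers overlapped between the groups, at 2288 to 2689 and 2235 to 2661 FPKM, with 0 of 6 called (limma, 2 higher at an unadjusted p under 0.05). Markers of brain regions differed as well. All 8 of 8 cerebellum markers fell, from a sum of 981.9 to 1444 in mock to 61.8 to 96.6 FPKM (irradiated), although the labels call the tissue whole brain. Telencephalon markers, with 2 of 8 higher, went from 36.8 to 75.3 in mock to 121.8 to 229.7 FPKM (irradiated). Since the cerebellum level separates the same libraries as the irradiation does, their shares in a difference between the groups cannot be told apart. The part of these cell types and regions in the values of the GTPase genes was not tested beyond a fit with the telencephalon level as a term, in which Gbp3 and Irgm1 had log2 changes of 0.56 and 0.41 and neither was called (limma adjusted p = 0.44 and 0.58).

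**Figure D5:**
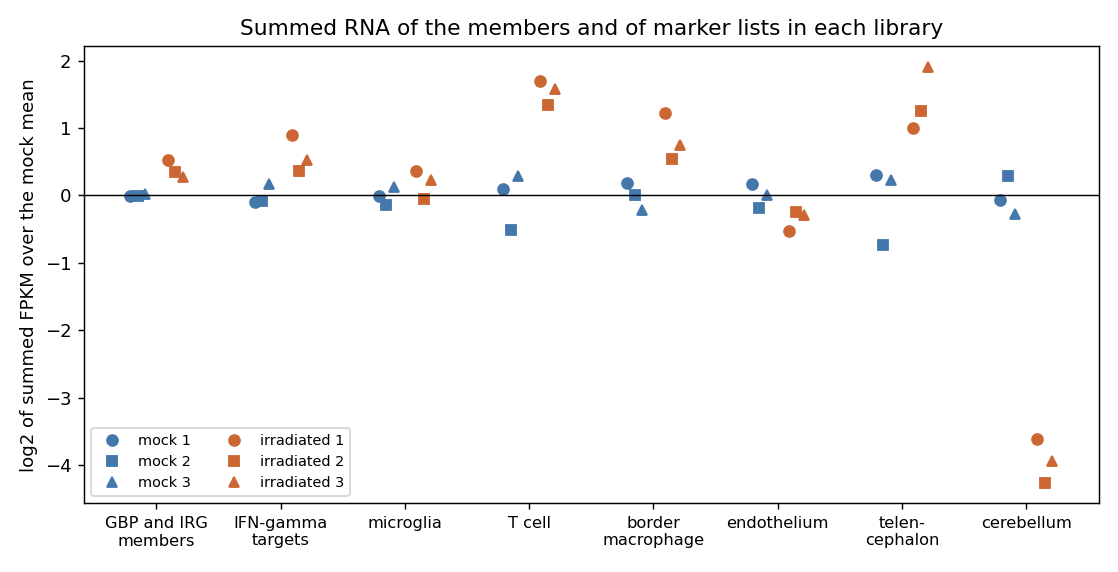
Summed FPKM of the 10 GTPase genes, of interferon-gamma targets and of marker lists in each library, as log2 of the ratio to the mock mean. The GTPase sums of the irradiated libraries (16.6 to 19.8 FPKM) lie above those of mock (13.7 to 14.0 FPKM), and the cerebellum and telencephalon sums are also separated between the groups. A sum gives most weight to its highest genes, for the GTPases Irgm1.

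Genes with the profile most like the mean profile of the GTPases were sought among all tested genes. Likeness was the root mean square difference, over the 6 libraries, between a gene's centred log2(FPKM + 0.5) values and the mean centred values of the 9 tested members. The 5 closest were Ciapin1 (0.033), Tmem246 (0.041), AI846148 (0.043), Trim27 (0.043) and Taz (0.050), with log2 changes of 0.16 to 0.25 and none called. These small changes follow from the way the genes were picked and are not a separate result. The mean also hides the spread of the members, whose own log2 changes ran from -0.090 to 0.56. The mean centred profile itself was -0.10, -0.10 and -0.14 (mock) against 0.20, 0.15 and -0.014 (irradiated).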

How the data were processed

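RNA was measured in 6 brain libraries, 3 per group. Values are FPKM deposited by the authors, with a column for each library. Per the submitters' processing notes, the tools were TopHat, Cufflinks and Cuffdiff and the build was mm10; no source used here gives their versions, settings, annotation or strand setting. Deposited FPKM summed to 472450 to 625782 per library. Among genes under 0.05 FPKM no ratio to mock 1 was shared by more than 1.76% of genes, so whole reads could not be recovered and depth is unknown apart from the rough read number the labels state; no interval for counting error is given. A leftover header line was removed.

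The 14585 genes averaging 0.5 FPKM or more were tested with limma 3.58.1 (R 4.3.3) on log2(FPKM + 0.5), group as the only term, trended empirical Bayes, two-sided, with Benjamini-Hochberg adjustment over all tested genes and calls under 0.05. The test was checked on simulated data with noise drawn independently for each gene and library. Differences shared by many genes, such as those of the region markers, were not part of that check. The GTPase genes, the pathway and marker lists and the tests were chosen with earlier results of these data known, and no list was tested as a set. Genes named were the 10 members, other family genes in the table, up to 4 tested genes of smallest p per pathway list, and the 5 genes of closest profile; others are marked or are markers.

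Alternatives were pseudocounts of 0.1 and 1, no filter or one at 1 FPKM, quantile normalization, median centring, robust empirical Bayes, a block for the replicate number, omission of each library in turn, omission of mock 2 and irradiated 1 together, and a telencephalon covariate. Promoter windows are from RefSeq on GRCm38.p6 (7 of 10 members matched) and transcripts from GENCODE M21.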

Additional observations from a re-analysis of the deposited data

How the results depend on the processing

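No GTPase gene was called in 15 of the 16 alternative settings. Quantile normalization called 1 (Gbp3) and moved the median log2 change of the tested members to 0.41. That median was positive in all 16 settings and ranged from 0.19 to 0.35 with 1 library left out. Some signs turned. With quantile normalization log2 changes became 0.015 for Gbp5, 0.084 for Irgm2, 0.096 for Ifi47 and 0.046 for Il10rb, with median centring 0.0025 for Irgm2 and 0.035 for Ifi47, with the telencephalon covariate 0.20 for Irgm2 and -0.015 for Irgq, and without mock 2 and irradiated 1 -0.0087 for Iigp1. With 1 library left out, the change ranged from -0.075 to 0.13 for Iigp1, -0.11 to 0.093 for Irgm2, -0.14 to 0.11 for Ifi47, -0.14 to 0.021 for Il10rb and -0.13 to 0.0078 for Ifngr1. Calls over all tested genes numbered 1126, 407 to 1355 with 1 library left out (438 without mock 1, 483 without mock 2, 650 without mock 3, 407 without irradiated 3) and 81 with the telencephalon covariate. Calls in the pathway lists numbered 10, 3 to 8 with 1 library left out (3 without mock 1 or mock 2, 4 without irradiated 2 or irradiated 3), 6 without mock 2 and irradiated 1, and 0 with the covariate, which takes up a residual degree of freedom. The cause of these differences was not tested. The replicate numbers are not said to pair the mice, and deviations of same-numbered libraries correlated at -0.33, 0.19 and 0.20. With the replicate block 795 genes, 4 pathway genes and 0 GTPase genes were called. Of the 10 members 5 averaged under 1 FPKM, where unknown depth limits what could be detected.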
